A study of Mus musculus with 12 samples.

Results

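Transcripts of 33 genes of sterol and fatty acid synthesis and their control were followed in cells sorted from mouse hearts, called cardiac macrophages in the labels, before and after a freezing injury. The genes were chosen by name as enzymes and regulators of these pathways, not by a threshold on their values but with earlier results of these data known, and all 33 were found among the 14460 genes of the deposited table, 32 by symbol and Msmo1 by its gene identifier. They comprised 5 regulators, 7 genes of the mevalonate and isoprenoid steps, 11 genes of the squalene and sterol steps, 1 sterol transport gene, 4 genes of fatty acid synthesis and 5 genes of fatty acid elongation and desaturation. All animals were Cx3cr1GFP/+ mice aged 2 to 3 months, a knock-in of GFP into 1 allele of Cx3cr1, a chemokine receptor gene, so that the control group too carried 1 working copy of it. RNA was sequenced from 12 libraries in 4 groups of 3, which the labels describe as independent replicates. The control hearts had no surgery (day 0), and the others were taken 3, 7 and 30 days after cryoinjury, used as a model of myocardial infarction. Cells of days 0, 7 and 30 were Ly6clow/CX3CR1high and those of day 3 were Ly6chigh/CX3CR1low. In each comparison with day 3, time after injury and sorting gate therefore cannot be told apart.

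Cells make cholesterol from acetyl-CoA through mevalonate, isoprenoids, squalene and lanosterol, and they make fatty acids from the same precursor through acetyl-CoA carboxylase and fatty acid synthase. Both routes are controlled by the SREBP transcription factors, which stay in the endoplasmic reticulum while sterols are plentiful, held there by INSIG proteins bound to the escort protein SCAP, and travel with SCAP to the Golgi for cleavage when sterols run low. In macrophages these pathways are known to change with inflammatory activation, with the uptake of lipid from dead cells and with the demand for membrane.

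Promoter windows were available from RefSeq (GRCm38.p6) for 27 of the 33 genes, all but Fdps, Fdft1, Sqle, Stard4, Scd2 and Fads1, each running from 250 bases before to 50 bases after a start site. Each window was searched on both strands for 4 short motifs of factors known for sterol-responsive promoters: the core TCACNCCAC of a sterol regulatory element, the E-box CACGTG, the CCAAT box bound by NF-Y and the GC box GGGCGG bound by Sp factors. CCAAT occurred in 22 of the 27 genes (81.5%) and in 42.9% of the 9047 tested genes with a window. GGGCGG occurred in 22 of 27 genes (81.5%, against 67.7% of tested genes), CACGTG in 6 (22.2%, against 11.8%) and TCACNCCAC in 1, Hmgcs1 (3.70%, against 1.35%). The promoter stretches below show Insig1 and Cyp51, which had their highest signal on day 30, Scap, which had its highest signal on day 7, and Hmgcs1, the gene with the sterol element core, which passed in no comparison. Each is written 5′ to 3′ on the gene's strand, ends before both the RefSeq and the GENCODE start of the gene, and has matches to the 4 motifs, on either strand, in capitals. They lie at chr5:28071162-28071362 (plus strand, Insig1), chr5:4104747-4104947 (minus strand, Cyp51), chr9:110333038-110333287 (plus strand, Scap) and chr13:119690101-119690350 (plus strand, Hmgcs1).
Insig1: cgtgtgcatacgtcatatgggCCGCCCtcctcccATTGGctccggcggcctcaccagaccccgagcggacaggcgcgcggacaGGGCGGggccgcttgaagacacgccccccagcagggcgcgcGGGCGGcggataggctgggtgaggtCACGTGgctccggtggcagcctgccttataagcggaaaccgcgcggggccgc
Cyp51: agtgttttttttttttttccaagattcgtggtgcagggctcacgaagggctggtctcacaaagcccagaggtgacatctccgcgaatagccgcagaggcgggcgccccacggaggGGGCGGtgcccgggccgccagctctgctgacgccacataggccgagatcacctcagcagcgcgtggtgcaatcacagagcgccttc
Scap: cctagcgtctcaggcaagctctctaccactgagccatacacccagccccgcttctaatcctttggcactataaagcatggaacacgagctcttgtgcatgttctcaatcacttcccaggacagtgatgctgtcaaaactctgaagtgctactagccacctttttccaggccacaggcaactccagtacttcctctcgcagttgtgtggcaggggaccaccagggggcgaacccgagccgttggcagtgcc
Hmgcs1: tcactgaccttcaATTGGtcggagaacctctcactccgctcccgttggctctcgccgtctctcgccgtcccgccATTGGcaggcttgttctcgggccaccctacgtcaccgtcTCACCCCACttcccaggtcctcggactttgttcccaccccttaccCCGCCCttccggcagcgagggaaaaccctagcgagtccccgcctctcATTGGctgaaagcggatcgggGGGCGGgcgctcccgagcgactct
In these stretches Hmgcs1 held the sterol element core, 3 CCAAT boxes and 2 GC boxes, Insig1 held 1 E-box, 1 CCAAT box and 3 GC boxes, Cyp51 held 1 GC box, and the Scap stretch held no match. The CACGTG and GGGCGG matches counted above for Scap, and the CCAAT match counted for Cyp51, lie in their promoter windows outside the printed stretches. No match overlapped a match of another motif. A match is a description of letters only, and binding was not measured.

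Levels are given as signal, a linear normalised read count that is comparable between libraries for 1 gene but not between genes, because it is not divided by length. Depth ran from 5828904 to 13199576 reads per library, and 3 reads, the limit that a count of 0 allows, corresponded to a signal of 0.190 to 0.543. Of 14 listed symbols of macrophage and monocyte markers 13 were found, with a summed signal of 4064 to 6627 per library. The symbol not found, Adgre1, is the newer name of Emr1, which was found. The first day 0 library differed from the other two of its group in having less mitochondrial signal (196122 against 425206 and 470741), and the second day 7 library had a summed signal of 14 fibroblast markers of 2521, against 683 and 933 in the other two. The 3 day 30 libraries were closer to each other than those of any other group. Between pairs of them, the chi-square of the reads averaged over genes was 2.21 to 2.98, where 1 would be counting noise. Pairs in other groups gave 5.98 to 86.8. The day 30 libraries were used as 3 samples. In these bulk samples, fewer cells of a type and less RNA per cell cannot be told apart.

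Of the 33 genes, 32 had a mean signal of at least 1 and were tested. Fads2, a front-end desaturase of polyunsaturated fatty acids, was too low, with a signal of 0.105 to 2.54 (1 to 22 reads). In the test over the 4 groups (limma, Benjamini-Hochberg adjusted p under 0.05) 20 of the 32 genes varied (62.5%), against 63.9% of all 12879 genes tested, so the share of varying genes was near the background. Among the 20, the highest mean lay on day 30 in 8, on day 7 in 7, on day 3 in 3 and on day 0 in 2, and the lowest mean lay on day 3 in 11, on day 0 in 6, on day 30 in 3 and on day 7 in 0. Among all varying genes, the highest mean lay on day 30 in 18.6%, on day 7 in 28.1%, on day 3 in 35.5% and on day 0 in 17.7%. The lowest lay on day 3 in 34.9%, on day 0 in 17.4%, on day 30 in 21.3% and on day 7 in 26.4%.

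**Figure D1:**
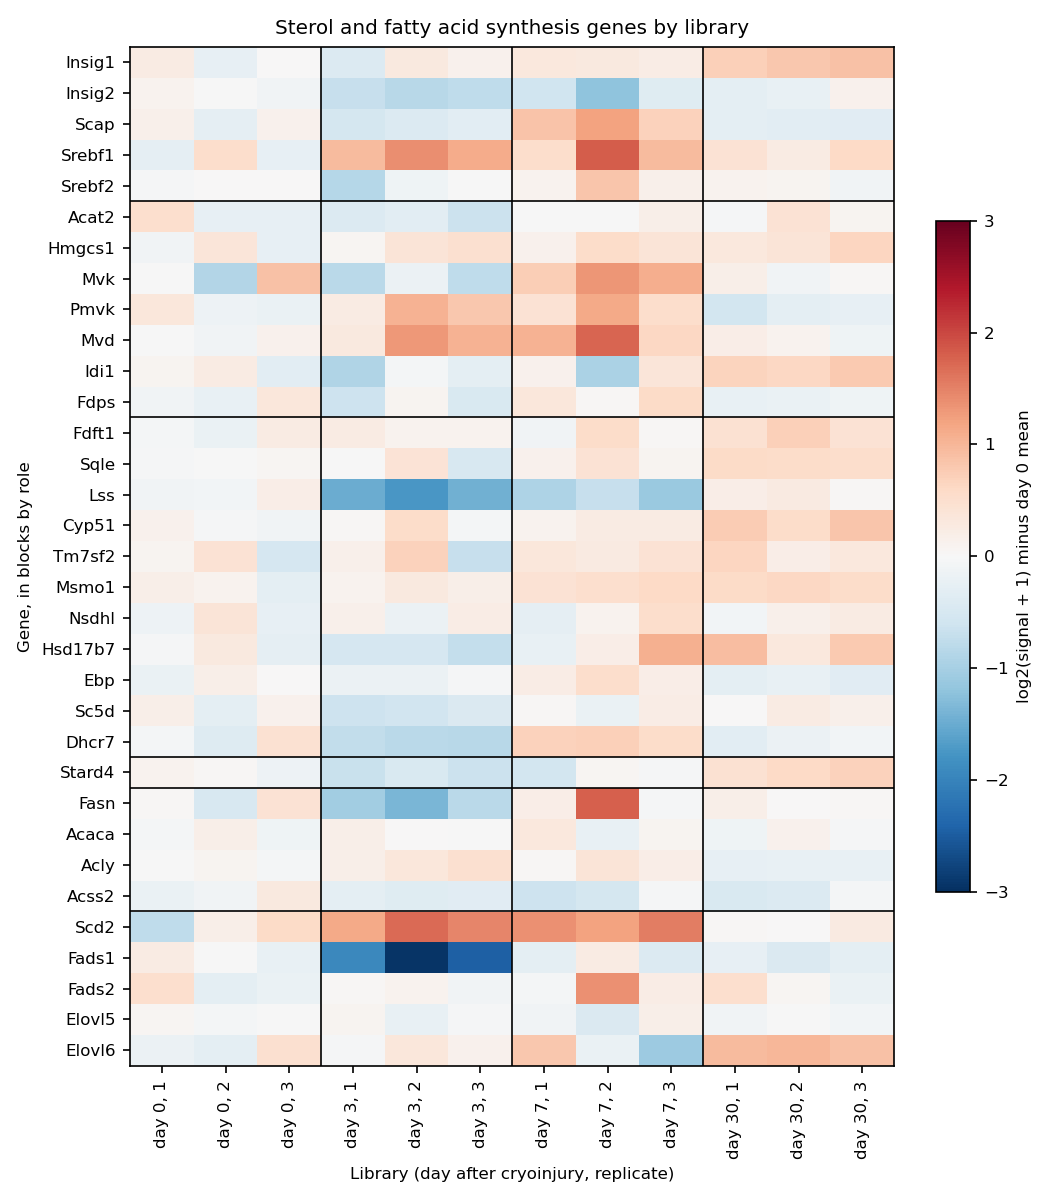
Colours show log2(signal + 1) minus the day 0 mean for the 33 genes (rows, in blocks by role) in the 12 libraries (columns), red higher and blue lower. Fads1 and Lss are low in every day 3 library, Scap and Dhcr7 are high in every day 7 library, and Insig1, Cyp51 and Stard4 are high in every day 30 library.

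On day 3 against day 0, 4 of the 32 genes were higher and 7 lower (34.4%), against 44.2% of all genes tested, 22.1% in each direction. The libraries of both groups did not overlap for 15 of the 32 genes, against 55.4% of all genes. The median log2 change of the 32 genes was -0.10, and -0.02 over all genes. On day 7 against day 0, 6 were higher and 2 lower (25%), against 21.6% of all genes (11.4% higher, 10.2% lower), with a median of 0.25 against -0.02 and no overlap of libraries for 12 genes, against 32.2% of all genes. On day 30 against day 0, 3 were higher and 0 lower (9.38%), against 6.18% of all genes (3.45% higher, 2.73% lower), with a median of 0.11 against -0.01 and no overlap for 14 genes, against 40.8%. These 3 comparisons share the day 0 libraries. Between the injured groups, 11 genes were higher and 0 lower on day 7 against day 3 (34.4%), against 46.8% of all genes (23.3% higher, 23.5% lower), with a median of 0.26 against 0.04 and no overlap for 12 genes, against 50.9%. On day 30 against day 7, 7 were higher and 8 lower (46.9%), against 39.6% of all genes (19.7% higher, 19.9% lower), with a median of 0.04 against 0.01 and no overlap for 17 genes, against 55.3%. The shares past the test were within a few points of the background for days 7 and 30 against day 0 below it for both comparisons with day 3 and above it on day 30 against day 7. No property of the set was read from these shares.

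**Figure D2:**
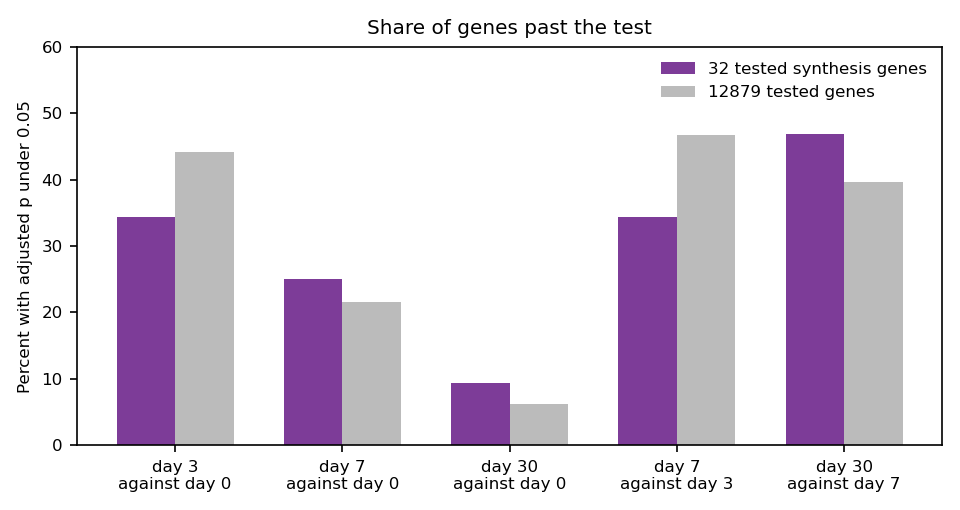
Bars show the percent of genes with an adjusted p under 0.05 in each comparison, for the 32 tested synthesis genes and for all 12879 genes tested. The synthesis genes are below the background in both comparisons with day 3 (34.4% against 44.2% and 46.8%) and above it on day 30 against day 7 (46.9% against 39.6%).

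Of the 48 changes that passed, 14 passed under every alternative setting in which the gene was tested. These 14 are named in the paragraphs below as holding throughout. The number was 20 when the setting that counts the day 30 libraries as 1 averaged sample is set aside. No change that passed turned its sign under any setting.

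Among the regulators, Scap, the sterol-sensing escort of the SREBP factors (9:110333288-110384950, GRCm38), was high on day 7. Its signal was 14.8, 10.8 and 14.7 on day 0, 8.91, 9.80 and 10.5 on day 3, 24.8, 32.3 and 22.1 on day 7 and 10.7, 10.5 and 10.3 on day 30. Every day 7 library lay above every other library. Scap rose by 0.92 ± 0.19 (log2, SE, n = 3 against 3; adjusted p = 0.00319) on day 7 against day 0 and by 1.34 ± 0.19 (adjusted p = 5.03e-05) against day 3, and it fell by 1.24 ± 0.19 (adjusted p = 0.000255) from day 7 to day 30, and all 3 calls held throughout. Scap shares 985 of its 7443 exon bases with 5830462I19Rik on the other strand, which had a mean signal of 0.99, and the strand setting of the counting is not given in the sources used here.

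Srebf1 (11:60199089-60222581), which encodes the SREBP forms known for driving fatty acid synthesis genes, had signals of 6.60, 12.2 and 6.70 on day 0, 16.7, 23.1 and 18.8 on day 3, 12.3, 31.2 and 16.7 on day 7 and 11.3, 9.89 and 12.9 on day 30. All day 3 and day 7 libraries were above all day 0 libraries, by a small margin for the first day 7 library. It rose by 1.15 ± 0.29 on day 3 against day 0 (adjusted p = 0.00501), a call that held throughout, and by 1.10 ± 0.29 on day 7 against day 0 (adjusted p = 0.0161). Without the second day 7 library, which had the highest Srebf1 signal, the day 7 value was 0.74 (adjusted p = 0.058).

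Srebf2 (15:82147181-82205379), the SREBP gene best known for sterol synthesis genes, had signals of 37.1, 38.3 and 38.4 on day 0, 20.6, 34.6 and 37.3 on day 3, 40.7, 67.7 and 42.1 on day 7 and 41.1, 40.3 and 35.4 on day 30. It did not pass the 4-group test (adjusted p = 0.0747), and its only passing change was a rise of 0.69 ± 0.22 on day 7 against day 3 (adjusted p = 0.0189). That change was 0.46 (adjusted p = 0.0743) without the second day 7 library, which was the highest, and 0.43 (adjusted p = 0.101) without the first day 3 library, which was the lowest. As a description, the ratio of Srebf1 to Srebf2 signal was 0.175 to 0.318 on day 0, 0.504 to 0.809 on day 3, 0.301 to 0.461 on day 7 and 0.246 to 0.363 on day 30.

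The INSIG genes encode the proteins that hold SCAP in the endoplasmic reticulum. Insig1 (5:28071363-28078662), itself a known SREBP target, had signals of 34.2, 23.9 and 28.6 on day 0, 21.5, 35.5 and 31.2 on day 3, 35.6, 35.5 and 33.3 on day 7 and 47.3, 50.9 and 53.3 on day 30. The day 30 libraries were above all others. Insig1 rose by 0.80 ± 0.18 on day 30 against day 0 (adjusted p = 0.0192) and by 0.52 ± 0.18 on day 30 against day 7 (adjusted p = 0.0355).

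Insig2 (1:121304353-121332589) had signals of 27.3, 25 and 23.5 on day 0, 15.2, 13.7 and 14.6 on day 3, 16.4, 10.3 and 19.3 on day 7 and 20.3, 21.5 and 27.6 on day 30. Every day 0 library was above every day 3 and day 7 library. It fell by 0.76 ± 0.21 on day 3 against day 0 (adjusted p = 0.00779), a call that held throughout, and by 0.73 ± 0.21 on day 7 against day 0 (adjusted p = 0.0222). It was higher by 0.60 ± 0.21 on day 30 than on day 7 (adjusted p = 0.0336). Without the second day 7 library, which was the lowest, the day 7 change was -0.48 (adjusted p = 0.0591) and the day 30 against day 7 change 0.35 (adjusted p = 0.12). The ratio of Insig1 to Insig2 signal was 0.958 to 1.25 on day 0, 1.41 to 2.60 on day 3, 1.73 to 3.45 on day 7 and 1.93 to 2.37 on day 30, as a description.

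**Figure D3:**
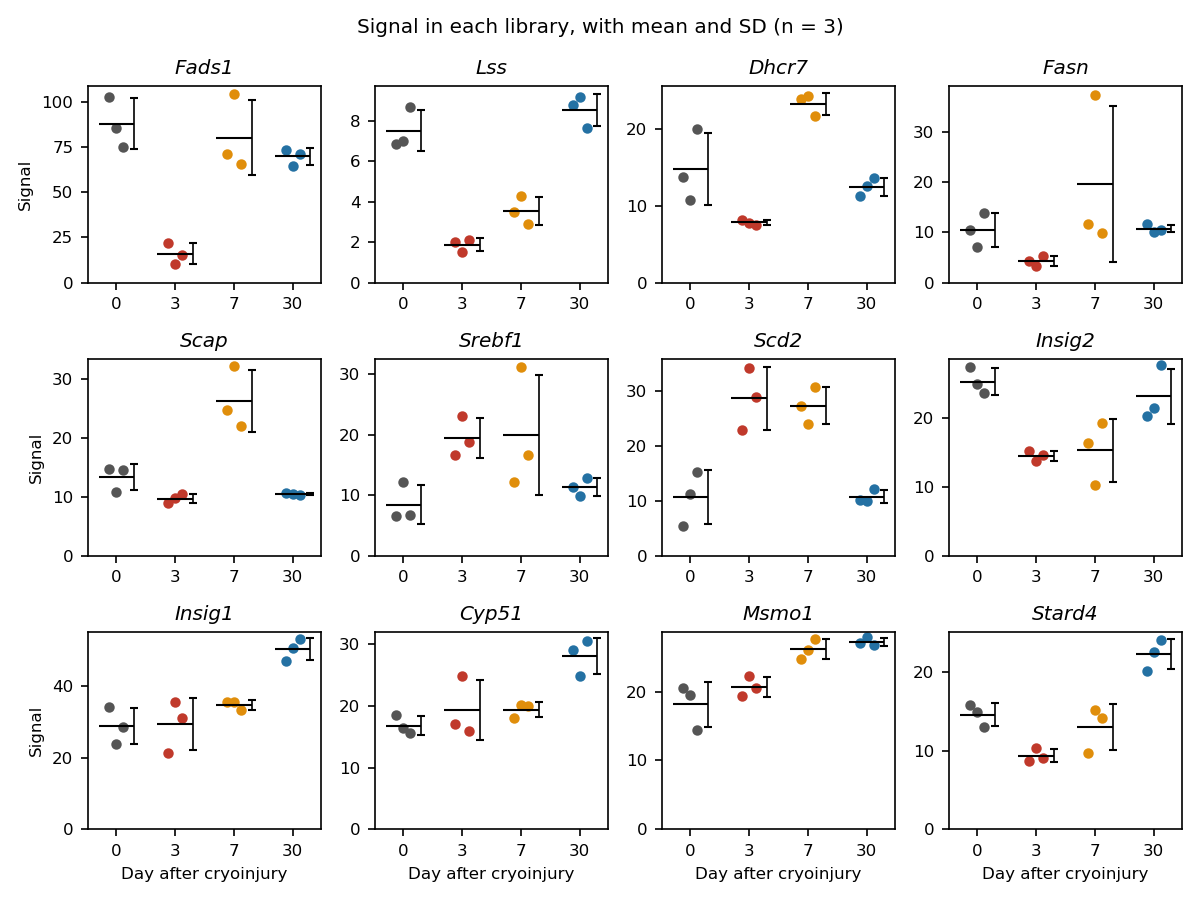
Points give the signal of 12 of the genes in each library, by day after cryoinjury, with a line at the mean and a bar of 1 SD (n = 3). Axes start at 0 and differ between panels. The day 3 points of Fads1 (10.5 to 22) lie far below those of the other days, and the highest Fasn point (37.5) is the second day 7 library.

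In the mevalonate and isoprenoid steps, 4 of the 7 tested genes varied over the groups (57.1%, against 63.9% of all genes tested). Hmgcs1 (13:119690379-119708260), HMG-CoA synthase, had signals of 15.8, 22.3 and 14.3 on day 0, 18, 22.7 and 24.4 on day 3, 18.9, 25.4 and 22.9 on day 7 and 21.7, 22.8 and 27.4 on day 30. The groups overlapped and it passed in no comparison (4-group adjusted p = 0.201). Of its 4594 exon bases, 557 are shared with the antisense gene Gm48342. Mvd, mevalonate diphosphate decarboxylase, rose from a mean of 1.76 ± 0.21 (SD, n = 3) on day 0 to 4.27 ± 1.72 on day 3 and 5.37 on day 7 (adjusted p = 0.0334 and 0.0190), and was 1.52 to 2.18 on day 30, lower than on day 7 by 1.07 ± 0.31 (adjusted p = 0.0149). Without the second day 7 library, which had the highest Mvd signal, the rise on day 7 against day 0 was 0.83 (adjusted p = 0.0763). Pmvk, phosphomevalonate kinase, with signals of 3.04 to 11.9, also rose on day 3 against day 0, by 0.70 ± 0.27 (adjusted p = 0.0443), with overlapping libraries, and fell by 1.05 ± 0.27 from day 7 to day 30 (adjusted p = 0.0068). Mvk, mevalonate kinase, had signals of 0.419 to 5.55 and few reads (4 to 48 per library). It rose by 1.64 ± 0.37 on day 7 against day 3 (adjusted p = 0.00224), a call that held throughout. With a mean signal of 2.21, Mvk was not tested under the filter at a mean of 5. It was lower by 1.02 ± 0.37 on day 30 than on day 7 (adjusted p = 0.0404).

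Idi1, isopentenyl diphosphate isomerase (13:8885501-8892451), had signals of 15, 16.8 and 11 on day 0, 7.09, 13.5 and 11.3 on day 3, 15.4, 6.82 and 18.3 on day 7 and 23.1, 22 and 24.8 on day 30. The day 30 libraries were the highest. It rose by 0.84 ± 0.30 on day 30 against day 7 (adjusted p = 0.0358), and by 0.45 (adjusted p = 0.162) without the second day 7 library, which was the lowest. Fdps, farnesyl diphosphate synthase, with signals of 3.45 to 9.20, passed on day 7 against day 3 alone (0.64 ± 0.25, adjusted p = 0.0436), with overlapping libraries, and Acat2, acetoacetyl-CoA thiolase, with signals of 1.99 to 5.54, passed in no comparison. Fdps shares 1124 of its 4208 exon bases with Gm43738 on the same strand, and Acat2 has a close paralog, Acat3, so reads may be divided between these genes.

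Of the 11 genes of the squalene and sterol steps, 7 varied (63.6%, against 63.9% of all genes tested). Lss, lanosterol synthase (10:76531588-76557138), had a mean signal of 7.53 ± 1.01 on day 0, 1.89 ± 0.31 on day 3, 3.56 ± 0.68 on day 7 and 8.56 ± 0.79 on day 30 (SD, n = 3). The day 3 libraries were the lowest and the day 7 libraries the next lowest, with no overlap with days 0 and 30. Lss fell by 1.56 ± 0.22 on day 3 against day 0 (adjusted p = 3.04e-05), which held throughout, and by 0.91 ± 0.22 on day 7 against day 0 (adjusted p = 0.00854). It rose by 0.65 ± 0.22 from day 3 to day 7 (adjusted p = 0.0223) and by 1.07 ± 0.22 from day 7 to day 30 (adjusted p = 0.00158). The rise from day 3 to day 7 was 0.54 (adjusted p = 0.0564) without the second day 7 library. Lss shares 381 of 10787 exon bases with 4930483K19Rik on the other strand.

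Dhcr7 (7:143823145-143848410), the reductase of the last step of cholesterol synthesis, had signals of 13.7, 10.7 and 19.9 on day 0, 8.14, 7.79 and 7.55 on day 3, 23.9, 24.3 and 21.6 on day 7 and 11.2, 12.6 and 13.6 on day 30. The day 3 libraries were below all others and the day 7 libraries above all others. Dhcr7 fell by 0.80 ± 0.20 on day 3 against day 0 (adjusted p = 0.00514) and rose by 1.46 ± 0.20 from day 3 to day 7 (adjusted p = 4.51e-05), and both calls held throughout. Its rise of 0.66 ± 0.20 on day 7 against day 0 (adjusted p = 0.0315) was 0.63 without the second day 7 library (adjusted p = 0.0612). On day 30 it was lower than on day 7 by 0.85 ± 0.20 (adjusted p = 0.00472).

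Cyp51 (5:4081145-4104746), the demethylase acting on lanosterol, had signals of 18.5, 16.4 and 15.6 on day 0, 17.1, 24.9 and 16 on day 3, 18, 20.2 and 20.01 on day 7 and 29.1, 24.9 and 30.6 on day 30. The day 30 libraries were above all day 0 and day 7 libraries. It rose by 0.71 ± 0.18 on day 30 against day 0 (adjusted p = 0.0319) and by 0.51 ± 0.18 on day 30 against day 7 (adjusted p = 0.0363). Msmo1 (8:64718139-64733792), the methyl sterol oxidase, had signals of 20.6, 19.5 and 14.5 on day 0, 19.4, 22.3 and 20.5 on day 3, 24.8, 26.1 and 27.8 on day 7 and 27.1, 28.0 and 26.9 on day 30. The day 7 and day 30 libraries were above all day 0 and day 3 libraries. It rose by 0.52 ± 0.16 on day 7 (adjusted p = 0.0328) and by 0.58 ± 0.16 on day 30 (adjusted p = 0.0471), each against day 0. Cyp51 shares 166 of 4415 exon bases with Akap9 on the other strand. On day 7 against day 3, 5 of the 11 genes of these steps were higher (45.5%, against 23.3% of all genes tested) and 0 lower. Counted in either direction, the share was near the background (45.5% against 46.8%). The higher genes were Dhcr7, Lss, Hsd17b7, Ebp and Sc5d, and of these calls only that for Dhcr7 held throughout.

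Ebp (X:8185329-8193512), a sterol isomerase, had signals of 15.3, 20.3 and 17.9 on day 0, 15.6, 15.5 and 17.2 on day 3, 21, 26.1 and 20.4 on day 7 and 14.3, 15 and 13.9 on day 30. The day 7 libraries were above all others, by a small margin for the third (20.4, against 20.3 in the second day 0 library). Ebp rose by 0.45 ± 0.17 from day 3 to day 7 (adjusted p = 0.0369) and fell by 0.61 ± 0.17 from day 7 to day 30 (adjusted p = 0.0109). Sc5d, a sterol desaturase with signals of 6.23 to 12, was lower on day 3 than on day 0 by 0.54 ± 0.20 (adjusted p = 0.0372) and higher on day 7 than on day 3 by 0.56 ± 0.20 (adjusted p = 0.032). Hsd17b7, a sterol ketoreductase with signals of 1.99 to 9.35, rose by 0.92 ± 0.31 from day 3 to day 7 (adjusted p = 0.0239), and by 0.55 (adjusted p = 0.119) without the third day 7 library, which was the highest.

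Sqle (15:59315077-59331192), squalene epoxidase, had signals of 9.11, 9.33 and 9.78 on day 0, 9.39, 12.8 and 6.49 on day 3, 10.4, 13.1 and 10.1 on day 7 and 14.6, 14.3 and 13.9 on day 30. The day 30 libraries were above all others, but the change of 0.55 ± 0.22 on day 30 against day 0 had an adjusted p of 0.142. Fdft1, squalene synthase, with signals of 8.07 to 16, passed in no comparison and shares 774 of its 4227 exon bases with Ctsb on the other strand, which had a mean signal of 3290. Nsdhl, a sterol dehydrogenase, and Tm7sf2, a sterol reductase, passed in none, and their signals were 9.23 to 16.8 and 0.529 to 2.95. Tm7sf2 shares 532 of 4403 exon bases with Vps51 on the same strand.

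Stard4, which carries cholesterol between membranes (18:33199355-33213862), had signals of 15.8, 14.9 and 13 on day 0, 8.72, 10.3 and 9.001 on day 3, 9.69, 15.1 and 14.2 on day 7 and 20.2, 22.6 and 24.1 on day 30. All day 3 libraries were below all day 0 libraries, and all day 30 libraries were above those of the other days. It fell by 0.59 ± 0.19 on day 3 against day 0 (adjusted p = 0.0197) and rose by 0.75 ± 0.19 from day 7 to day 30 (adjusted p = 0.00647). On day 30 it was higher than on day 0 by 0.58 ± 0.19, with an adjusted p of 0.0844.

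Of the 4 genes of fatty acid synthesis, 2 varied, Fasn and Acly (50%, against 63.9% of all genes tested). Fasn (11:120805846-120824547), fatty acid synthase, had signals of 10.4, 7.02 and 13.9 on day 0, 4.41, 3.31 and 5.29 on day 3, 11.7, 37.5 and 9.79 on day 7 and 11.6, 10.2 and 10.5 on day 30. The day 3 libraries were below all others, and the second day 7 library was above all others by a wide margin. Fasn fell by 1.08 ± 0.37 on day 3 against day 0 (adjusted p = 0.0296) and rose by 1.72 ± 0.37 from day 3 to day 7 (adjusted p = 0.00169). The rise held throughout and was 1.15 (adjusted p = 0.00241) without the second day 7 library, in which the fibroblast marker sum was also highest, at 2521. The part of that marker sum in the Fasn signal was not tested.

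Acly (11:100476353-100528000), ATP citrate lyase, which makes cytosolic acetyl-CoA, had signals of 48.3, 52.1 and 46.7 on day 0, 55.6, 62.1 and 68.4 on day 3, 50.1, 63.9 and 56.1 on day 7 and 41.2, 42.0 and 41.6 on day 30. The day 30 libraries were below all others. It fell by 0.43 ± 0.14 from day 7 to day 30 (adjusted p = 0.0243), and by 0.34 (adjusted p = 0.0504) without the second day 7 library. Acaca, acetyl-CoA carboxylase, and Acss2, acetyl-CoA synthetase, passed in no comparison. Acss2 signals were 3.18 to 6.88, and the Acaca means were 19.5 on day 0, 20.3 on day 3, 20.5 on day 7 and 19.4 on day 30 (4-group adjusted p = 0.970).

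In the desaturases, Fads1 had the largest fall and Scd2 the largest rise of the 32 tested genes on day 3 against day 0. Fads1 (19:10182888-10196877), a front-end desaturase that makes polyunsaturated fatty acids, had signals of 103, 85.9 and 75.2 on day 0, 22, 10.5 and 15.2 on day 3, 71.0, 104 and 65.6 on day 7 and 73.5, 64.6 and 71.4 on day 30. The highest day 3 library was far below the lowest of the other days, with 89 to 1126 reads per library behind these values. Fads1 fell by 2.44 ± 0.23 on day 3 against day 0 (15.9 ± 5.80 against 88.0 ± 14, SD, n = 3; adjusted p = 5.7e-07) and rose by 2.29 ± 0.23 from day 3 to day 7 (adjusted p = 2.01e-06), and both calls held throughout. Days 7 and 30 did not differ from day 0 at the threshold (-0.15 ± 0.23 and -0.32 ± 0.23, adjusted p = 0.675 and 0.438).

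Scd2 (19:44293674-44306864), a stearoyl-CoA desaturase that makes monounsaturated fatty acids, had signals of 5.41, 11.3 and 15.2 on day 0, 22.9, 34.2 and 28.9 on day 3, 27.3, 24 and 30.7 on day 7 and 10.2, 10.03 and 12.1 on day 30. All day 3 and day 7 libraries were above all day 0 and day 30 libraries. It rose by 1.43 ± 0.27 on day 3 (adjusted p = 0.000543) and by 1.38 ± 0.27 on day 7 (adjusted p = 0.00239), each against day 0, and both calls held throughout. From day 7 to day 30 it fell by 1.26 ± 0.27 (adjusted p = 0.00242). The ratio of Fads1 to Scd2 signal was 0.307 to 0.962 on day 3 and 2.14 or more in the libraries of the other days, as a description. Elovl5, an elongase of polyunsaturated fatty acids, passed in no comparison, with signals of 45.0 to 68.2 and a 4-group adjusted p of 0.905. Elovl6, an elongase of saturated fatty acids, had signals of 0.730 to 6.36 (5 to 91 reads) and rose by 1.10 ± 0.37 from day 7 to day 30 (adjusted p = 0.0298), or by 0.64 (adjusted p = 0.128) without the third day 7 library, which was the lowest.

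**Figure D4:**
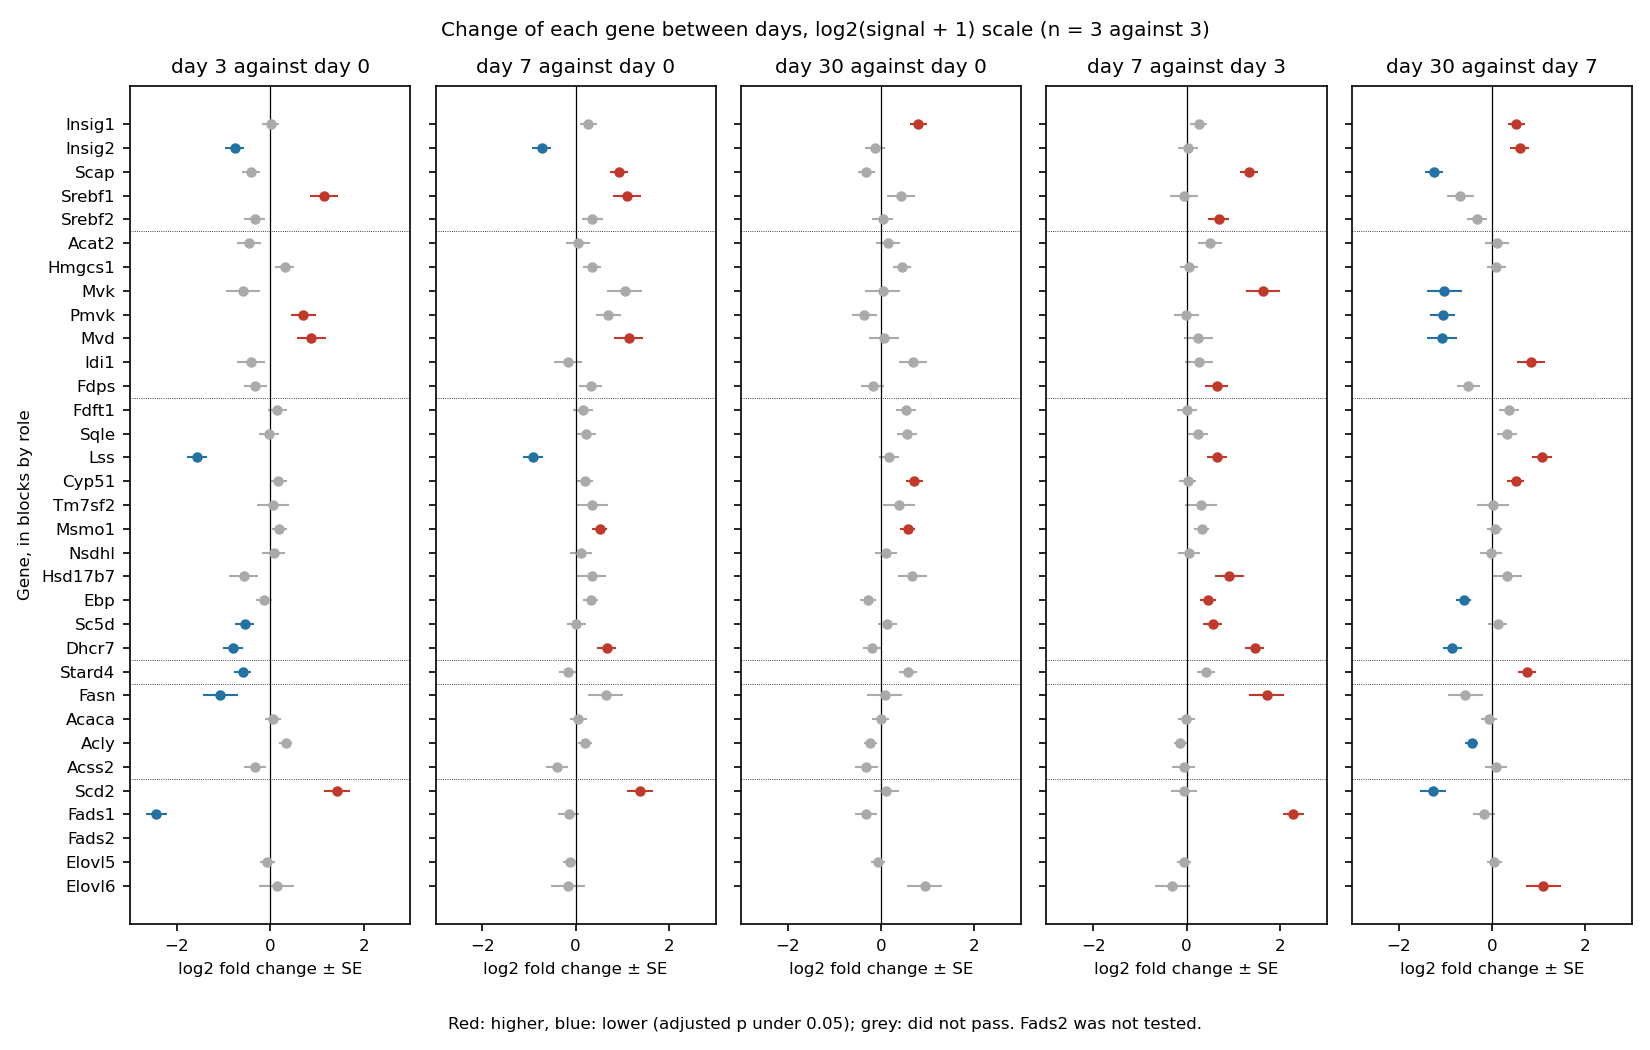
Points show the log2 change of each of the 32 tested genes with its SE in the 5 comparisons, red for higher, blue for lower and grey for genes that did not pass. The day 3 against day 0 panel has Fads1 at -2.44 and Scd2 at 1.43 as its extremes, and the day 7 against day 3 panel has no blue point.

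Calls that did not hold throughout depended on single libraries or settings. On day 3 against day 0, the calls for Lss, Dhcr7, Insig2, Srebf1, Scd2 and Fads1 held throughout. Those for Fasn, Stard4, Sc5d, Mvd and Pmvk ended when single libraries of either group were left out, with the adjusted p over all settings reaching 0.123, 0.0598, 0.160, 0.149 and 0.180. On day 7 against day 0, the calls for Scap and Scd2 held throughout, and those for Srebf1, Mvd, Dhcr7, Msmo1, Insig2 and Lss ended in at least 1 setting, with the adjusted p reaching 0.123, 0.102, 0.138, 0.171, 0.116 and 0.0755. On day 7 against day 3, the calls for Mvk, Dhcr7, Scap, Fasn and Fads1 held throughout, and those for Lss, Hsd17b7, Ebp, Sc5d and Srebf2 ended in at least 1, with the adjusted p reaching 0.194, 0.137, 0.127, 0.192 and 0.101. The Fdps call there ended in 11 of 19 settings. On day 30 against day 0, the calls for Insig1, Cyp51 and Msmo1 ended when day 0 replicate 2, day 0 replicate 3 or any day 30 library was left out. They also ended with the day 30 libraries averaged to 1 sample, which leaves no replicates on that day. The changes were then 0.80, 0.72 and 0.58, against 0.80, 0.71 and 0.58 in the main fit. On day 30 against day 7, the Scap call held throughout, and those for Pmvk, Lss, Ebp, Dhcr7, Stard4 and Scd2 ended only with the day 30 libraries averaged. The other 8 calls of that comparison also ended in settings that left out single libraries.

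Other genes of these pathways were listed for context. Of 14 tested sterol pathway genes outside the set, 3 were higher and 3 lower on day 3 against day 0. On day 7 against day 3, 2 were higher and 5 lower. Over all genes tested, 22.1% were higher and 22.1% lower in the first comparison, and 23.3% and 23.5% in the second. Por, the reductase that supplies electrons to Cyp51 and other P450 enzymes, rose by 2.14 ± 0.26 on day 3 against day 0 (adjusted p = 9.57e-06) and fell by 1.82 ± 0.26 from day 7 to day 30 (adjusted p = 0.000174). Ch25h, which makes a hydroxylated cholesterol, was higher than day 0 by 0.81 ± 0.22 on day 7 and by 0.88 ± 0.22 on day 30 (adjusted p = 0.0184 and 0.031).

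Of 18 tested fatty acid genes outside the set, 1 was higher and 7 were lower on day 3 against day 0 (22.1% of all genes in each direction). On day 7 against day 3, 10 were higher and 1 lower (23.3% and 23.5% of all genes). Acsl3, which activates fatty acids, fell by 2.13 ± 0.24 on day 3 (adjusted p = 3.44e-06) and rose by 1.37 ± 0.24 from day 3 to day 7 (adjusted p = 0.000293). Scd1 had a signal of 0.479 to 7.06 and passed only on day 7 against day 3 (1.13 ± 0.39, adjusted p = 0.0279). Among 14 tested genes of SREBP processing and degradation, 5 were higher and 3 lower on day 3 against day 0 (22.1% of all genes in each direction). Rnf145, a sterol-responsive ubiquitin ligase, fell by 1.40 ± 0.14 there (adjusted p = 8.95e-07). Of 21 tested genes of sterol uptake, storage, trafficking and efflux, 11 were higher and 6 lower on day 3 against day 0. On day 7 against day 0, 11 were higher and 1 lower (11.4% and 10.2% of all genes). From day 7 to day 30, 1 was higher and 14 lower (19.7% and 19.9% of all genes). Abca1, the cholesterol exporter, fell by 1.02 ± 0.18 on day 3 (adjusted p = 0.000253), while Nr1h3, a liver X receptor gene, rose by 1.75 ± 0.28 (adjusted p = 0.000121).

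Marker genes of other cell types and of the cell cycle moved with the groups, and their part in the changes of the 33 genes was not tested. For the counts below, 22.1% of all genes tested were higher and 22.1% lower on day 3 against day 0. On day 7 against day 3, 23.3% of all genes were higher. The summed signal of 24 cell cycle genes was 589 to 649 on day 0, 268 to 307 on day 3, 574 to 703 on day 7 and 711 to 721 on day 30, and 19 of these genes were lower on day 3 against day 0 and 21 higher on day 7 against day 3. The sum of 14 fibroblast markers was 96.4 to 229 on day 0, 381 to 482 on day 3, 683 to 2521 on day 7 and 238 to 252 on day 30, with 0 of the 14 at 0 in every library. The sum of 12 found cardiomyocyte markers was 86.3 to 412 on day 0, 11.5 to 17.8 on day 3, 86.9 to 221 on day 7 and 26.6 to 27.0 on day 30. Of 12 adipocyte markers 5 were found (Pnpla2, Lipe, Fabp4, Aqp7 and Dgat2), and their sum was 43.3 to 117 on day 0, 57.9 to 76.6 on day 3, 61.5 to 122 on day 7 and 41.0 to 44.7 on day 30. The sum of 6 found neutrophil markers was 53.2 to 102 on day 0, 245 to 309 on day 3, 101 to 160 on day 7 and 60.9 to 65.0 on day 30, and 3 of the 5 tested were higher on day 3 against day 0. The sum of 10 T and NK cell markers was 41.4 to 199 on day 0, 5.55 to 14 on day 3, 40.1 to 74.5 on day 7 and 29.3 to 30.2 on day 30, with 5 of 6 tested lower on day 3 against day 0. The sum of 5 found B cell markers was 277 to 304 on day 0, 69.7 to 113 on day 3, 210 to 330 on day 7 and 235 to 252 on day 30, with 2 of 4 tested lower on day 3 against day 0. The sum of 6 mast cell markers was 22.6 to 40.9 on day 0, 0.575 to 0.794 on day 3, 10.5 to 19.5 on day 7 and 2.54 to 3.61 on day 30, with 5 of 5 tested lower on day 3 against day 0. The sum of 9 found endothelial markers was 24.7 to 154 on day 0, 118 to 154 on day 3, 66.6 to 161 on day 7 and 38.9 to 43.8 on day 30, with 1 of 9 higher and 1 lower on day 3 against day 0.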

How the data were processed

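RNA of 12 libraries of sorted heart cells was sequenced by the authors; the submitters' processing notes name cutadapt 1.3, RSEM 1.2.20, edgeR 3.14.0 and GRCm38, and other settings are not given in the sources used here. The deposited table holds a linear signal per gene and library and deposited log2 values of it (0 where the signal is below 1, judged from the values); the log2 columns were not used. In each library 100% of the signal values were whole multiples of 1 read within 0.02 reads, so reads were recovered from the deposited signal. Gene identifiers were matched to GENCODE M21 (14232 of 14460, 98.4%).

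The 12879 genes whose mean signal reached 1 were tested on log2(signal + 1) with limma 3.58.1 (R 4.3.3), 4 group means, variance trend and 8 residual degrees of freedom. Two-sided p-values were adjusted per comparison by the Benjamini-Hochberg method (threshold 0.05); fold changes on this scale understate changes of low genes. The p-values measure each change against a spread between libraries that is estimated over all 4 groups, the closely alike day 30 libraries included. Fits on recovered reads with edgeR 4.0.16 called 5610, 2595, 755, 5965 and 5076 genes (day 3, 7 and 30 against day 0, day 7 against day 3, day 30 against day 7). DESeq2 1.42.0 called 5841, 3083, 1328, 6190 and 5392. The SE and SD values printed with ± come from the spread between libraries, and the floor of 3 reads covers counting error only. Members and lists were chosen with earlier results of these data known. Values in every library are printed for members with a mean signal of at least 10 that passed the 4-group test and 1 pairwise comparison, and for Srebf1, Srebf2, Scap, Insig1, Insig2, Hmgcs1, Sqle, Fasn and Scd2; the others are given by their range or group means. Of other lists, up to 4 passing genes by size and Ch25h, Scd1, Abca1 and Nr1h3 could be named; some results for genes of these lists are not reported here.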

Additional observations from a re-analysis of the deposited data

Results flagged for a closer look

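Dhcr7 was lower on day 3 and higher on day 7 than on day 0, and days 7 and 3 differed by 1.46 on the log2 scale. That difference follows from the changes against day 0, so its passing adds no support of its own. The call on day 7 against day 0 ended in 7 of 19 settings, with the adjusted p reaching 0.138. The comparisons of days 3 and 7 with day 0 share the day 0 libraries.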

How the results depend on the processing

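Alternatives were a pseudocount of 0.1 or 5, another filter (none, or a mean of 5) and scaling by quantiles or medians. Others were the robust variance prior, the replicate number as a block, fitting only the compared groups, and edgeR and DESeq2 on recovered reads. Each library was also omitted in turn. The last 2 alternatives were chosen with earlier results of these data known. The first of these omitted both libraries that differed from the others of their own group (day 0 replicate 1 and day 7 replicate 2). The second averaged the day 30 libraries to 1 sample. Of 3005 recomputed values, 2797 kept their side of the threshold, 185 calls ended, 23 were gained and 0 called values changed sign. Averaging day 30 ended 29 calls, and leaving out both libraries ended 13. With day 30 averaged, genes of the set that passed as higher and lower numbered 2 and 4 on day 3 against day 0, 0 (higher) on day 30 against day 0, 7 (higher) on day 7 against day 3, and 0 and 1 on day 30 against day 7; 1 was lower on day 7 against day 0, and 11 varied over the 4 groups. Over all genes it gave 1740 calls on day 7 against day 0, 14 on day 30 against day 0 and 815 on day 30 against day 7, from 2782, 796 and 5103. Fitting the compared groups alone gave 2 higher and 0 lower on day 7 against day 0 (1158 genes in all) and 7 higher on day 30 against day 0 (2674 genes). It gave 5 higher on day 7 against day 3 (4642 genes in all, from 6032). It gave 4 higher on day 30 against day 7 (4386 genes in all, from 5103). Without both libraries there were 3 higher and 1 lower on day 7 against day 0 (2302 genes in all). On day 30 against day 0 there were 5 higher (2513 genes), and DESeq2 called 1328 genes there. Quantile normalisation left 7 higher on day 7 against day 3 (5437 genes). Leaving out 1 library gave, in genes higher, 2 to 5 on day 3 against day 0, 3 to 6 on day 7 against day 0, 0 to 3 on day 30 against day 0, 7 to 10 on day 7 against day 3 and 2 to 5 on day 30 against day 7. For genes lower it gave 4 to 8 on day 3 against day 0, 1 to 2 on day 7 against day 0 and 5 to 9 on day 30 against day 7. Over all genes it gave 235 to 955 calls on day 30 against day 0, 1867 to 3335 on day 7 against day 0 and 3474 to 5502 on day 30 against day 7. The calls over all genes were 4646 to 5492 on day 3 against day 0 and 5020 to 6049 on day 7 against day 3. Over the groups, 16 to 21 genes of the set varied, and 7065 to 8473 of all genes. Averaging leaves 1 sample on day 30, and fewer of all genes then passed in every comparison as well. The cause of these shifts was not tested. Replicate numbers did not pair libraries (median r of deviations 0.0049 in 18 same-number pairs and -0.0069 in 36 others). With the replicate block, 2 calls ended (Msmo1 on day 30 against day 0, adjusted p = 0.0587, and Fdps on day 7 against day 3, adjusted p = 0.051), Srebf1 on day 30 against day 7 was gained (adjusted p = 0.0446), and 2 genes were higher on day 30 against day 0 and 9 lower on day 30 against day 7. Depth limits Mvk, Tm7sf2, Elovl6 and Fads2, with as few as 4, 4, 5 and 1 reads in a library.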
